A study of Microhyla fissipes with 12 samples.

Results

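Dorsal muscle of the frog Microhyla fissipes held 19 unigenes whose messenger RNA was far higher at the last stage sampled than in any earlier library. A unigene is a transcript assembled from the reads and treated as a gene. The 19 were chosen by their values from a table of 468578 unigenes: the lowest FPKM of the 3 stage 45 libraries had to be at least 10 and at least 4 times the highest FPKM of the other 9 libraries. FPKM is the number of sequenced fragments scaled for the length of the unigene and the size of the library, so it is a share of the library and not an amount per cell. Because the stage 45 values chose the members, their height at stage 45 is given below as a description, without a test.

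The libraries came from dorsal muscle of tadpoles fed spirulina powder, at stages 36, 40, 43 and 45, named S36, S40, S43 and S45. There were 3 libraries a stage, 12 in all, and the labels give no treatment or genotype. The number of animals behind each library is not given in the labels, so the p-values below rest on a spread between libraries that may be partly technical. The title of the series places the question in the remodelling of this muscle during metamorphosis.

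Metamorphosis in frogs is driven by thyroid hormone, which turns on and off large sets of genes as the tadpole becomes a juvenile. The trunk muscle along the back is kept through this change, while its larval fibres give way to fibres of the adult type. Genes that come up late in this course can belong to the maturing fibres, but also to nerve, blood, connective tissue or skin sampled with the muscle. In such bulk RNA, a change in the number of cells and a change in RNA per cell cannot be told apart. The unigenes carry cluster IDs without gene names, so no function is given to any of them, and the tissue label could not be checked against marker genes.

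Libraries did not all differ by stage alone. S45 replicates 2 and 3 differed by about the sampling noise expected. Among the most abundant unigenes, the robust SD of the log2 ratio between them was 0.0287. Read depth being unknown, the expected value of 0.0351 was scaled from their SD of 0.266 among less abundant unigenes. The mean of S45 replicates 2 and 3 was therefore used as 1 sample, and S45 has n = 2. Of the 66 pairs of libraries the next closest was S36 replicate 3 with S40 replicate 1, at 0.0553, although they belong to different stages, and the other 64 pairs lay between 0.155 and 0.646. Whether this pair shares material was not tested. Both were kept as samples of their stages, and counts without them are given beside the tests. By the same SD, S43 replicate 3 was closer to S45 replicates 1, 2 and 3 (0.262, 0.321 and 0.332) than to its own stage. It lay at 0.377 from S43 replicate 1 and 0.470 from S43 replicate 2, and the reason was not tested. S43 replicate 3 and S45 replicate 1 had 135286 and 140066 unigenes at an FPKM of 1 or more, against 68062 to 107969 in the other 10. Total FPKM ran from 1219979 to 1688307 per library, and the depth in reads is unknown.

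Few unigenes met the rule. Of 12792 unigenes with at least 10 FPKM in every S45 library, 19 passed the 4-fold requirement, or 0.149%. In the median unigene of the 12792, the lowest S45 value was 0.624 times the highest value elsewhere. The ratio reached 1 in 2431 unigenes, 2 in 274 and 3 in 56. It reached 8 in 7 unigenes, 6 of which were listed at 0 in all 9 earlier libraries. The same rule turned to the other stages found 0 unigenes for S36, 1 for S40 and 0 for S43. These counts do not show that S45 alone has such unigenes. The S36 rule needs S36 replicate 3 at 4 times S40 replicate 1, and the S40 rule the reverse. That pair was close, with a robust SD of 0.0553 among the most abundant unigenes. By the same measure S45 pairs lay at 0.0287 to 0.253, S36 pairs at 0.181 to 0.214 and S40 pairs at 0.178 to 0.290. The closest S43 pair was at 0.279. Among less abundant unigenes, S45 replicates 2 and 3 were at 0.266, and S36 replicate 3 with S40 replicate 1 at 0.302. There the S40 pairs, at 0.532 to 0.640, were closer than S45 replicate 1 with replicates 2 and 3, at 0.729 and 0.710. The S36 pairs lay above the S40 pairs, and the S43 pairs above all other pairs within a stage. The rule takes the lowest library of a stage, so it also depends on the spread between replicates. On stage means, the same limits found 1374 unigenes for S45 instead of 19. Stage means were not used for S36, S40 or S43, so the part of that spread in the counts of the 4 stages was not tested. The mirrored rule, at least 10 FPKM in all 9 earlier libraries and at least 4 times every S45 value, found 1 unigene.

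**Figure D1:**
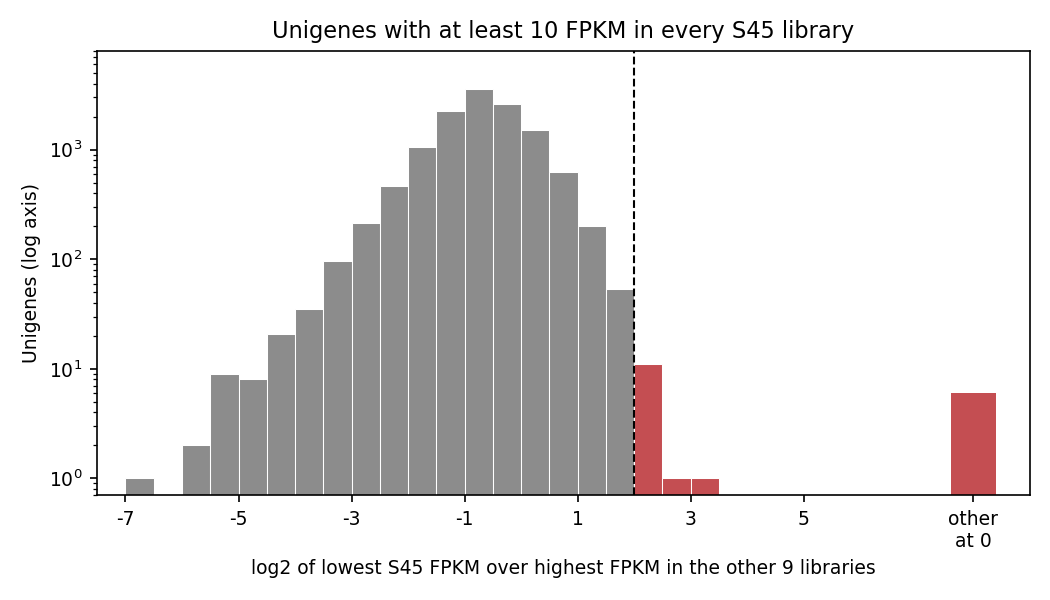
Number of unigenes (log axis) by the log2 of their lowest S45 FPKM over their highest FPKM elsewhere, for the 12792 unigenes with at least 10 FPKM in every S45 library. The dashed line is the 4-fold requirement, the 19 members are in red, and the bar at the right holds the 6 that were listed at 0 in all 9 other libraries.

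The members just inside the 4-fold limit were Cluster-199519.79287 at a ratio of 4.11, Cluster-199519.146269 at 4.15 and Cluster-199519.92973 at 4.21. Just outside it stood Cluster-199519.159870 at 3.95, Cluster-199519.110409 at 3.92 and Cluster-199519.73814 at 3.92. At the limit of 10 FPKM, the lowest S45 values inside were 10.32 for Cluster-199519.79287, 10.42 for Cluster-199519.56479 and 10.75 for Cluster-57863.0. Those outside were 9.66 for Cluster-199519.162407, 9.61 for Cluster-199519.186808 and 9.57 for Cluster-199519.72304. Of these last 3, Cluster-199519.186808 and Cluster-199519.72304 were also listed at 0 in all 9 earlier libraries. The members are thus the upper end of a continuous range, in ratio for those above 0 before S45 and in level for those at 0.

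Together the 19 were a trace of the library before S45 and a small share of it at S45. In the order of replicates 1, 2 and 3, their summed FPKM was 48.59, 53.18 and 55.59 at S36, then 61.01, 85.16 and 48.78 at S40. The S43 sums were 13.08, 5.29 and 66.18, and the S45 sums 737.15, 833.05 and 805.18. The lowest S45 sum was 8.66 times the highest sum elsewhere, and S43 replicates 1 and 2 were the lowest libraries of all. As a share of total FPKM the members made up 0.00418% ± 0.000306 (SD) at S36, 0.00503% ± 0.00137 at S40 and 0.00176% ± 0.00189 at S43, each over n = 3 libraries. At S45 they made up 0.0521% ± 0.00801 (n = 2). The highest member accounted for 30.9% of the summed S45 mean and the highest 5 for 64.1%.

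**Figure D2:**
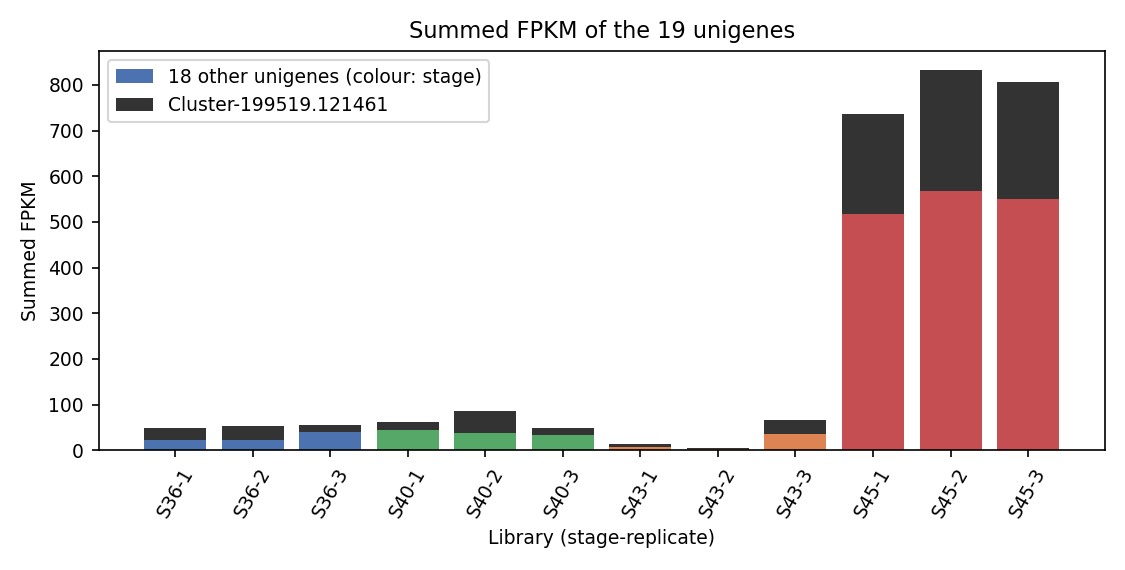
Summed FPKM of the 19 unigenes in each of the 12 libraries, with the black part showing the highest member, Cluster-199519.121461. The S45 sums lie between 737.15 and 833.05, all other sums at or under 85.16, and S43 replicate 2 is lowest at 5.29.

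How large the difference looks depends on the scale. Median-ratio scaling, which sets the typical unigene to the same level in every library, divided the S45 libraries by 1.33 to 1.35 and the others by 0.787 to 1.15. After it, the 4-fold requirement was met by 9 of the 19, the limit of 10 FPKM by 12, and both by 5: Cluster-199519.121461, Cluster-199519.189186, Cluster-199519.13495, Cluster-199519.70887 and Cluster-29086.0. The last 3 of these 5 are among the 6 members listed at 0 in all 9 earlier libraries. Those 6 meet any fold requirement under any scaling. Of the other 13, only Cluster-199519.121461, Cluster-199519.189186 and Cluster-199519.82453 kept the 4-fold requirement. Among the 13 members above 0 in some earlier library, the S45 mean was a median of 9.24 times the highest mean of an earlier stage (range 6.85 to 25.1), and 6.02 times after scaling (range 5.24 to 19.1).

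Members detected before S45 form the larger class: 11 of the 19 were above 0 in 6 or more of the 9 earlier libraries. They held the highest S45 levels, as the heatmap of all members shows. Before S45, all but the most abundant of them were under 10 FPKM in most libraries. The most abundant was Cluster-199519.121461, with 26.34, 30.49 and 16.21 FPKM at S36, 15.98, 46.57 and 14.98 at S40, 5.83, 2.49 and 29.7 at S43 and 220.05, 265.21 and 256.13 at S45 (replicates 1, 2 and 3, as in all that follows). It was the only member above 10 FPKM in most earlier libraries, and its mean at S45, 240 ± 28.7 (SD, n = 2), was 9.3 times that at S40 and ranked 482 among all unigenes at S45.

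**Figure D3:**
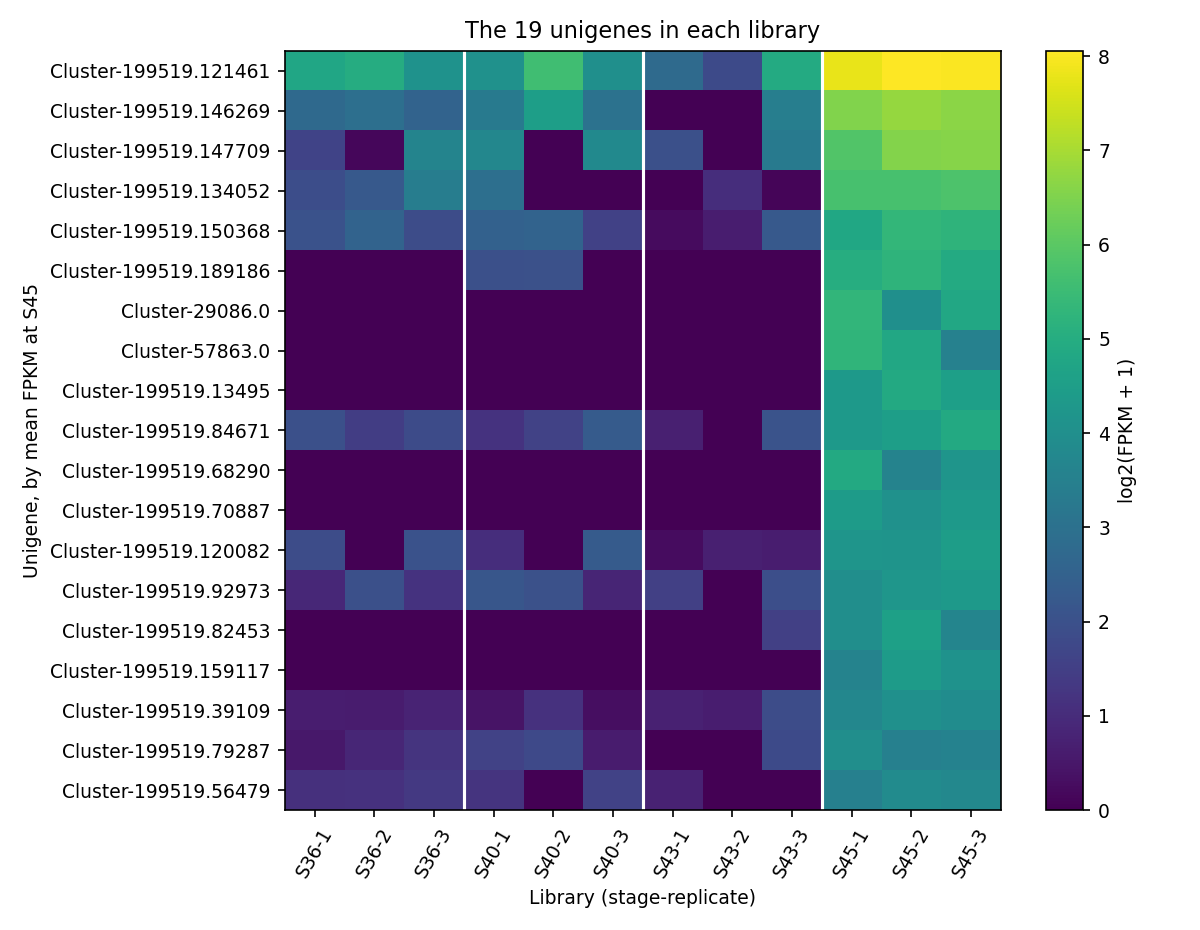
log2(FPKM + 1) of the 19 unigenes (rows, ordered by mean FPKM at S45) in the 12 libraries (columns, white lines between stages). The S45 columns are bright in every row, 6 rows are listed at 0 in all 9 earlier libraries, and S43 replicates 1 and 2 are dark in most of the other rows.

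Cluster-199519.146269 was second, with 91.6, 108.73 and 100.79 FPKM in the S45 libraries. Before that it had 5.74, 6.62 and 4.94 at S36, 9.01, 22.09 and 7.22 at S40, and 0, 0 and 9.98 at S43. Its highest value elsewhere, 22.09 in S40 replicate 2, set it near the limit of the rule.

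Cluster-199519.147709 varied widely within each stage. It had 2.06, 0.11 and 11.45 FPKM at S36, 12.33, 0 and 13.23 at S40, 2.94, 0 and 9.05 at S43 and 57, 93.19 and 96.07 at S45. Replicate 2 was the lowest library at each of the first 3 stages. At S45, replicate 1 stood at 0.602 times the mean of the others, the lowest such ratio of the 19.

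Cluster-199519.134052 had the most even S45 values of the 19, at 51.05, 51.76 and 54.81 FPKM. It had 2.72, 3.79 and 9.77 at S36, 6.66, 0 and 0 at S40 and 0, 1.06 and 0.08 at S43. Cluster-199519.150368 had 3.12, 4.95 and 2.69 at S36, 4.66, 4.89 and 1.96 at S40, 0.18, 0.55 and 3.75 at S43 and 26.59, 39.52 and 37.04 at S45. In both, S36 lay above S43 replicates 1 and 2, and in the latter S43 replicate 3 lay among the S36 values.

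**Figure D4:**
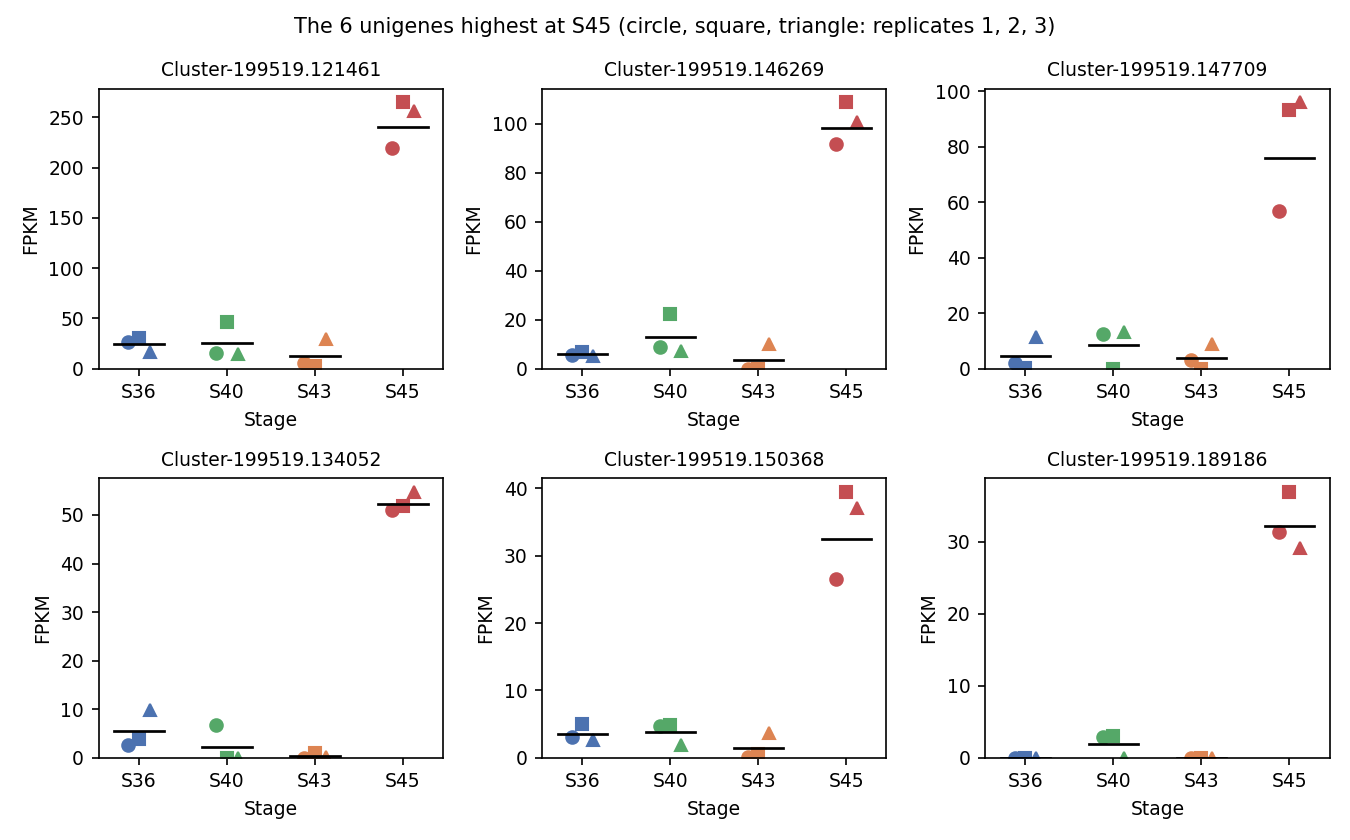
FPKM of the 6 unigenes highest at S45, by stage, with circles, squares and triangles for replicates 1, 2 and 3 and a line at the stage mean (at S45 the mean of replicate 1 and of the average of replicates 2 and 3). In every panel the S45 points stand clear of all earlier ones, led by Cluster-199519.121461 at 220.05 to 265.21.

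The remaining members of this class were low throughout, with S45 means of 11.9 to 22.3. Cluster-199519.84671 had 19.32, 21.97 and 28.51 FPKM at S45 and at most 3.95 before. Cluster-199519.120082 had 17.31, 17.03 and 21.32 after at most 3.93, and Cluster-199519.92973 had 14.65, 17.74 and 18.99 after at most 3.48. Their earlier values overlapped between S36, S40 and S43.

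The last 3 of the class stood closest to the limit of 10 FPKM. Cluster-199519.79287 had 14.76, 10.32 and 10.77 at S45 after at most 2.51, and Cluster-199519.56479 had 10.42, 13.95 and 12.68 after at most 1.98. Cluster-199519.39109 was above 0 in all 9 earlier libraries, between 0.22 and 1.2 at S36 and S40, and had 0.66, 0.56 and 2.67 in S43 replicates 1, 2 and 3 and 12.15, 15.54 and 14.15 in those of S45. Of the members above 0 in all 9 it alone had a higher mean at S43 than at S36 and S40, through S43 replicate 3.

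A pair of members was seen in 1 or 2 earlier libraries. Cluster-199519.189186 was listed at 0 at S36 and S43 and had 2.93, 3.01 and 0 FPKM in S40 replicates 1, 2 and 3, then 31.38, 37 and 29.11 at S45. Its ratio of lowest S45 to highest earlier value, 9.67, was the highest of the 13 that were above 0 before S45. Cluster-199519.82453 was above 0 before S45 only in S43 replicate 3, at 1.91, and had 14.68, 22.86 and 11.75 at S45.

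The other 6 members were listed at 0 in all 9 earlier libraries. No fold change is given for them, since a listed 0 can be a failed estimate and the depth is unknown. In S45 replicates 1, 2 and 3, Cluster-29086.0 had 38.69, 15.06 and 27.48 FPKM, Cluster-57863.0 had 37.66, 27.35 and 10.75, and Cluster-199519.68290 had 28.97, 11.27 and 17.24. These 3 were highest in replicate 1 and differed up to 3.5-fold between S45 libraries. Cluster-199519.13495 had 19.45, 28.47 and 22.38, Cluster-199519.70887 had 20.22, 15.74 and 19.13, and Cluster-199519.159117 had 11.2, 20.34 and 16.08.

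By the median, the members at 0 elsewhere varied more within S45 than the rest, though the ranges overlapped. The highest S45 library was a median of 2.19 times the lowest in these 6 (range 1.28 to 3.5). In the other 13 it was a median of 1.3 times the lowest (range 1.07 to 1.95). For comparison, the median was 1.42 times over 6111 unigenes. Their lowest S45 value lay between 10 and 19.45, the highest such value of the 6. Between S45 replicates 2 and 3 alone, the log2 ratio had a median size of 0.48 in the 6, 0.109 in the 13 and 0.159 in the 6111. S45 replicate 1 was above the mean of replicates 2 and 3 in 4 of the 6 and in 1 of the 13, Cluster-199519.79287. Among the 12792 unigenes with at least 10 FPKM throughout S45, replicate 1 was above that mean in 50.8%. The rule used these same S45 values. The lowest S45 value of the 13 had to reach 4 times an earlier value above 0, while the 6 faced only the limit of 10 FPKM. For this reason, and with S45 counted as 2 samples, these differences have no test.

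Unigenes listed at 0 in all 9 earlier libraries and above 0 in every S45 library numbered 912. Most were very low, with a median of 0.47 FPKM in their lowest S45 library. The value of 5 was reached in all S45 libraries by 21 of them and 10 by 6, which are the 6 members. Of the 912, 29.3% belonged to Cluster-199519, the single large cluster of the assembly, which holds 224984 unigenes, or 48.0% of the table.

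Cluster membership also set a pair of members apart. Of the 12792 unigenes with at least 10 FPKM throughout S45, all but 23 belonged to Cluster-199519. Of the 19 members 17 did, and the others, Cluster-29086.0 and Cluster-57863.0, were each the sole unigene of their cluster. Both were at 0 before S45 and highest in S45 replicate 1, the library with 140066 unigenes at an FPKM of 1 or more. Their values above 10 FPKM in replicates 2 and 3 were required by the rule. The part of S45 replicate 1 in these values was not tested. The other 17 come from 1 cluster, and whether some are pieces or variants of 1 transcript cannot be told from the table.

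S36, S40 and S43 were compared in a limma fit of the 9 earlier libraries. The rule used these libraries too, through its cap on the highest value. The cap acted mostly through a pair of them: the rule found 62 unigenes without S40 replicate 2 and 46 without S43 replicate 3, against 20 to 25 without any other earlier library. The comparison of the earlier stages is therefore not independent of how the members were chosen. Of the 19 members, 10 reached an FPKM of 1 in 3 or more of the 9 libraries and were tested, among 88375 unigenes. The 6 at 0 did not pass, nor did Cluster-199519.189186, Cluster-199519.82453 and Cluster-199519.39109. The last 2 are the only members whose highest earlier stage mean was that of S43, so the filter left out those that went against a low S43. A unigene was called at a Benjamini-Hochberg adjusted p under 0.05 and a difference of at least 1 in log2(FPKM + 1), a scale that understates the change of low unigenes.

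Between S36 and S40 the 10 members did not lean either way. In limma's estimates 5 were higher and 5 lower at S40, with a median log2 difference of -0.01 against 0.12 over all unigenes tested. With median-ratio scaling 4 were higher and 6 lower. None was called, which says little about the members, since the background was 0.00453%, or 4 of 88375. Unadjusted limma p-values under 0.05 were found for 0 of the 10 and 3.32% of all.

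At S43 none of the 10 members was called against S36 or S40, though their estimates were below 0. The median log2 difference was -0.73 against S40 and -0.88 against S36, where the medians over all unigenes tested were -0.08 and 0.0033. All 10 estimates were below 0 in both comparisons, also with median-ratio scaling and quantile normalization. The cap of the rule and the filter acted on these same libraries, so the signs are not independent of the choice of members. Without S43 replicate 2, 8 of the 10 were below 0 against S40 and 7 against S36. With no filter on low values, 11 of the 13 members above 0 in some earlier library were below 0 against S40 and 10 against S36. limma called 0 of the 10 against S40, with a background of 0.595% (0.319% lower), and 0 against S36, with a background of 0.981% (0.358% lower). With so few calls over all unigenes, 0 of 10 says little about the members. These backgrounds rest on 526 and 867 calls, which became 61 to 255 and 92 to 388 with 1 library left out, and 9 and 114 without the close pair of S36 and S40 libraries. Unadjusted limma p-values under 0.05 were found for 1 of the 10 in each comparison, against 15.9% and 16.4% of all tested. Over all unigenes the calls against S40 were 244 higher and 282 lower, a balance that turned to 303 higher and 199 lower with median-ratio scaling.

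**Figure D5:**
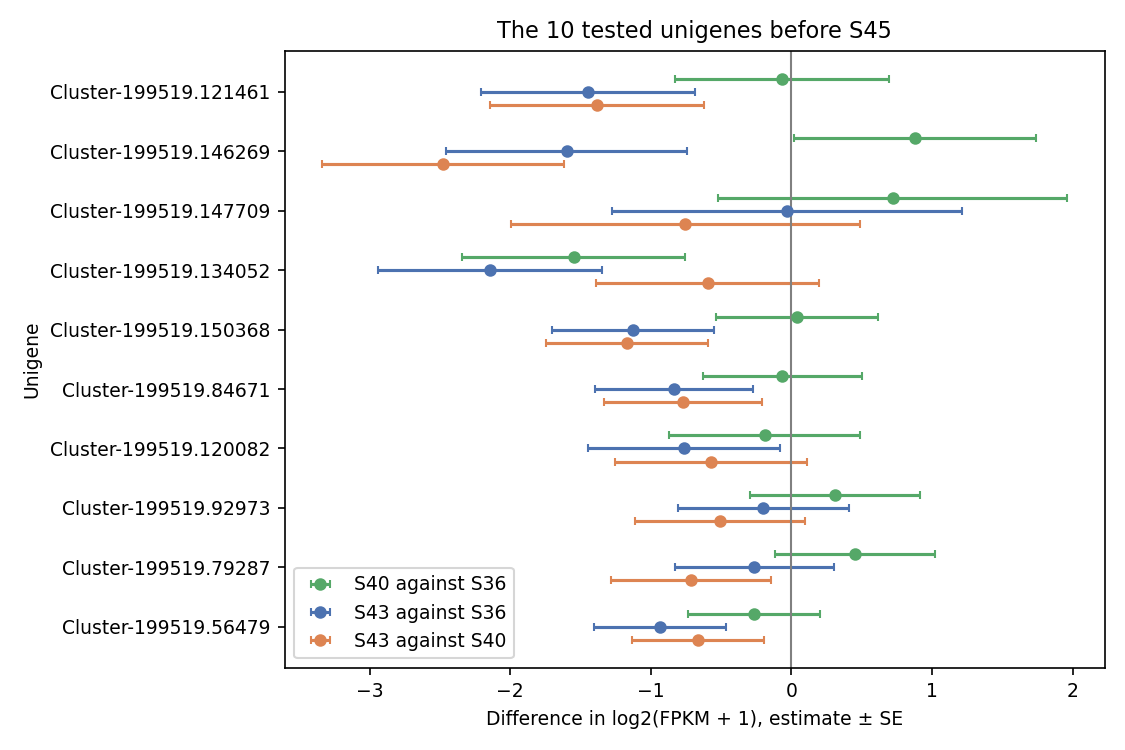
limma estimates ± SE of the difference in log2(FPKM + 1) between the earlier stages for the 10 tested unigenes, ordered by mean FPKM at S45. The S43 estimates (blue and orange) all lie below 0, the S40 against S36 estimates (green) lie on both sides, and none passed the adjusted threshold.

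The steepest estimate against S40 was that of Cluster-199519.146269, at -2.48 ± 0.86 SE (limma adjusted p = 0.2). Its S43 replicates 1 and 2 were at 0 and replicate 3 at 9.98, within the range of S40. Without S43 replicate 3 it was called lower (log2 -3.63, limma adjusted p = 0.042), and over the 21 alternatives that gave it a value the adjusted p ran from 0.042 to 0.51. Against S36 the steepest was Cluster-199519.134052, at -2.14 ± 0.79 SE (limma adjusted p = 0.22), which passed in 0 of 20 alternatives, with adjusted p from 0.11 to 0.52. The most abundant member, Cluster-199519.121461, was at -1.38 ± 0.76 against S40 (limma adjusted p = 0.4) and -1.45 ± 0.76 against S36 (limma adjusted p = 0.38).

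Within S43, replicate 3 was the highest library in 7 of the 10 tested members and in 42.1% of all unigenes tested. Among the 12792 unigenes with at least 10 FPKM throughout S45 the share was 56.9%. Of the 10, replicate 3 was not the highest in Cluster-199519.134052, Cluster-199519.120082 and Cluster-199519.56479. In 5 of the 10, S43 replicates 1 and 2 both lay below all 6 libraries of S36 and S40, as in 11310 of the 88375 unigenes tested. Among the 255 unigenes whose lowest S45 value was at least 10 and 2 to 4 times the highest elsewhere, this held for 130. In 206 of those 255, S43 replicate 3 was the highest S43 library. S43 replicate 3 lay within the range of S36 and S40 in 9 of the 10 and above it in Cluster-199519.79287. In Cluster-199519.147709, Cluster-199519.134052, Cluster-199519.120082 and Cluster-199519.56479 that range began at 0. Listed zeros were not confined to S43. Of the 13 members above 0 in some earlier library, 8 were at 0 in S43 replicate 2 and 5 in S43 replicate 1, but 2 in S43 replicate 3. Of the S36 and S40 libraries, S40 replicate 2 had 5 of the 13 at 0 and the others 1 to 3. Of the 10 tested members, 6 were at 0 in S43 replicate 2, 3 in S43 replicate 1, 1 in S43 replicate 3 and 4 in S40 replicate 2. Among all unigenes tested the shares at 0 in these libraries were 15.8%, 22.3%, 14.9% and 13.0%. S43 replicate 3 was also the earlier library with the most unigenes at an FPKM of 1 or more, at 135286. The part of this in the members' values was not tested.

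A mean of log2(FPKM + 1) lowest at S43 was found in 10 of the 13 members above 0 before S45. The same held for 74.1% of the 255 unigenes whose lowest S45 value was at least 10 and 2 to 4 times the highest elsewhere, and for 34.0% of all 12792 with at least 10 FPKM throughout S45. Every S43 library lay below every S36 library in 2 of the 13 and in 26 of the 255. The difference between these sets was not tested, since they share libraries and were picked on them.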

How the data were processed

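RNA of dorsal muscle was purified on poly-T beads and sequenced as paired ends, per the labels' protocols. The authors deposited FPKM values with 2 decimals for 12 libraries, mapped to stages by sample title. How the reads were assembled, aligned and counted is not given in the sources used here. No unigene sequences or names were used. Read depth is unknown, so no count model or counting interval was possible.

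The members and all choices of rules and tests were made with earlier results of these data known. limma 3.58.1 (R 4.3.3, data.table version 1.17.8) was fitted to log2(FPKM + 1) of the 9 libraries of S36, S40 and S43, with stage as the only term and a mean-variance trend; S45 was left out because it chose the members. P-values were adjusted over all 88375 unigenes tested. The fit was also run on simulated data, with changes added only to unigenes of higher mean FPKM. That run does not show what the fit can detect at the low levels most members had before S45. S45 replicates 2 and 3 were averaged. Named unigenes followed a rule on S45 level, ratio, spread between S45 libraries, cluster and distance to the limits; the 2 members outside it, Cluster-199519.120082 and Cluster-199519.39109, are given so that every member is accounted for. Alternatives were other pseudocounts, filters, scalings, eBayes settings, samples in the fit, a replicate term, libraries left out, and other limits for the rule. Python 3.11.15 with numpy 2.4.6, pandas 2.3.3 and matplotlib 3.10.9 was used.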

Additional observations from a re-analysis of the deposited data

How the results depend on the processing

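The number of members depends on every part of the rule. It was 274 with 2-fold, 7 with 8-fold, 45 with an FPKM limit of 5, 6 with a limit of 20, 5 after median-ratio scaling, 4 after quantile normalization, 38 when S45 replicates 2 and 3 were averaged first and 1374 for the rule on stage means, against 19. Leaving out 1 library, which can only add unigenes, gave 20 to 109, with 109, 52 and 59 without S45 replicates 1, 2 and 3, 62 without S40 replicate 2 and 46 without S43 replicate 3; all 19 were among them each time. The median ratio of 9.24 became 6.02 with median-ratio scaling and ran from 8.45 to 10.1 with 1 library left out.

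Members called among S36, S40 and S43 stayed at 0 in each alternative except S43 against S40 without S43 replicate 3 (1 lower), so with 1 library left out they ran from 0 to 1. The counts over all unigenes moved far more. For S40 against S36 the 4 became 10 with a pseudocount of 0.1, 1 with no filter, 0 with a mean FPKM of at least 5, 2 with all stages as 11 samples, 0 without both S36 replicate 3 and S40 replicate 1, and 0 to 11 with 1 library left out. For S43 against S40 the 526 became 813 (pseudocount 0.1), 104 (no filter), 169 (mean FPKM of at least 5), 887 (all 12 libraries), 9 (without both libraries of the close pair) and 61 to 255 (1 left out). For S43 against S36 the 867 became 155 (no filter), 1397 (median-ratio scaling), 1511 (all 12 libraries), 114 (without the close pair) and 92 to 388 (1 left out).

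With the replicate block these counts were 0, 44 and 99, and 0 members were called. Replicate numbers gave no clear pairing across stages. Deviations from the stage mean correlated between -0.26 and 0.15 over the 9 same-numbered pairs and between -0.30 and 0.42 over the other pairs. Not every library correlated best with its own number. Depth in reads is unknown, which limits every statement on values listed at 0.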
